A study of Mus musculus with 12 samples.

Results

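The amino acid response genes of the ATF4 pathway were described here through 10 members: Atf4, Atf3, Ddit3, Asns, Chac1, Trib3, Sesn2, Psat1, Phgdh and Shmt2. They were chosen by name, and all 18 probes that the platform annotation assigns to them were read from the deposited signal table of 45281 probes. Of these, 17 probes for 9 genes were detected (detection p under 0.01) on at least 3 of the 12 arrays and were tested, among 18185 tested probes that covered 10043 named genes. The lone Atf3 probe was detected on 1 array and was not tested.

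Total RNA was measured on Illumina bead arrays in 4 groups of mouse cells with 3 samples each. They were iPS cells derived with mouse Nanog (mNanog iPS), iPS cells derived with human Nanog (hNanog iPS), embryonic stem cells (ES) and Nanog null neural stem cells (NS). Every group has E14Tg2A (129), a line of mouse ES cells, as its strain. ES and iPS cells grew in N2B27 medium with LIF, the GSK3 inhibitor CHIR99021 (3 µM) and the MEK inhibitor PD0325901 (1 µM); no source used here gives that of NS, so cell type and medium cannot be told apart in a comparison with NS. Nothing states whether replicates were separate cultures or clones, so the p-values reflect spread among these samples, which may be technical, and the form of Nanog cannot be told apart from the clone.

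ATF4 is a transcription factor whose messenger RNA is translated more when kinases such as GCN2 or PERK phosphorylate the initiation factor eIF2alpha, as happens when amino acids run short or when unfolded proteins build up. It binds composite C/EBP-ATF elements in the promoters of genes for amino acid synthesis, amino acid uptake and tRNA charging, and of stress regulators. Because ATF4 is controlled largely at translation, the level of its messenger RNA does not measure its activity. Pluripotent mouse cells are known for a high demand for amino acids and for one-carbon units made from serine, glycine and threonine.

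Promoters are shown for the members whose differences above NS were largest, for Phgdh, which was lower than NS in every pluripotent group, and for Atf3, the transcription factor among those with a match. Psat1, lower than NS in the iPS groups but not in ES, is not shown and holds no match. The windows come from RefSeq (GRCm38.p6) and run 5′ to 3′ on the gene's strand, from 250 bases before the annotated start to 50 bases after it. Capitals mark each match to TGATGNAA, the core of the amino acid response element, searched on both strands. The matches are TGATGAAA at 23 bases before the start of Asns, TTGCATCA at 193 bases before that of Chac1, TTACATCA at 14 bases after that of Trib3 and TTGCATCA at 110 bases before that of Atf3. The last 3 are matches on the opposite strand. The Phgdh window holds none. The windows lie at chr6:7693160-7693459 (Asns, minus strand), chr2:119350992-119351291 (Chac1, plus strand), chr2:152344011-152344310 (Trib3, minus strand), chr1:191183284-191183583 (Atf3, minus strand) and chr3:98339920-98340219 (Phgdh, minus strand).
Asns: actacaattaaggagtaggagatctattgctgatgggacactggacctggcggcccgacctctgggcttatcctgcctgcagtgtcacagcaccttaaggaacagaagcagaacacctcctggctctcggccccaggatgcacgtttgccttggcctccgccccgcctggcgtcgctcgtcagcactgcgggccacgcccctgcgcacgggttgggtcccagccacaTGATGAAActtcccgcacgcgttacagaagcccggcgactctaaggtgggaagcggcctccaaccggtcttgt
Chac1: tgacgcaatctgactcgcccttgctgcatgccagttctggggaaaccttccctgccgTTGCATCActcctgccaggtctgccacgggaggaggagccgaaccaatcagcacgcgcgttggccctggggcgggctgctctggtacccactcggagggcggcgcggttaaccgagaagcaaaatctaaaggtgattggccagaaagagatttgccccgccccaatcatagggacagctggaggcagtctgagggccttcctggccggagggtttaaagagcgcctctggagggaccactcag
Trib3: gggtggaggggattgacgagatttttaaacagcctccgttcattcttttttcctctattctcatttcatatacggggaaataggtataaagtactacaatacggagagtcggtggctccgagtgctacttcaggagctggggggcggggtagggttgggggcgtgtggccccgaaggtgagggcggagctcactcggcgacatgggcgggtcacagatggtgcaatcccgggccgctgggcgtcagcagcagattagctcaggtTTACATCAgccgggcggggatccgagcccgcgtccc
Atf3: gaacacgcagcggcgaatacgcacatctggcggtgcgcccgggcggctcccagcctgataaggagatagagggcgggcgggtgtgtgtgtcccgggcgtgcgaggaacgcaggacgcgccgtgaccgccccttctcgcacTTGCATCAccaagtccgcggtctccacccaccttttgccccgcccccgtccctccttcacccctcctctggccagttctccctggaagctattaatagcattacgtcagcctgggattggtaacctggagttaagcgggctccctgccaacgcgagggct
Phgdh: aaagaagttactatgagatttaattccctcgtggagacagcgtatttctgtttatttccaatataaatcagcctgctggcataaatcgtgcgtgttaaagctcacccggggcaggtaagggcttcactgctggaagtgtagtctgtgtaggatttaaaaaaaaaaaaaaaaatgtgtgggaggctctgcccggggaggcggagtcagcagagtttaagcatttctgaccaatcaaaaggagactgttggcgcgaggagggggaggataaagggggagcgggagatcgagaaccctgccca
All 10 members matched the RefSeq table, with 11 windows in all, because Psat1 has more than 1 start. The TGATGNAA core stood in the windows of 4 of the 10 members and in 1304 of all 32851 windows (3.97%). The cyclic AMP response element TGACGTCA was in 0 of the members' windows and in 1.79% of all windows. A match in these letters describes the window and is not evidence of binding.

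The 12 arrays had mean signals of 317.5 to 561.9 and detected 13654 to 16776 probes each. They fell into 6 brighter arrays (470.3 to 561.9) and 6 dimmer ones (317.5 to 332.2). Each group holds both kinds: 1 of 3 arrays is brighter in mNanog iPS and in ES, and 1 of 3 is dimmer in hNanog iPS and in NS. Nanog itself was not detected on any NS array and spanned 6.87 to 13.15 in the other groups over its probes, with hNanog iPS at 6.87 to 7.22 on one probe (ILMN_1245732). Most markers followed the labelled cell types: 8 of 8 pluripotent markers were detected on every iPS and ES array, while 8 of 8 neural stem markers were detected on every NS array. Pou5f1, Zfp42, Tfcp2l1, Fbxo15 and Tdgf1 were detected on no NS array, but the other 3 pluripotent markers, Esrrb, Dppa5a and Klf4, were detected on every NS array. The 8 summed to 305 to 338 in NS, 81700 to 85500 in mNanog iPS, 80300 to 82400 in hNanog iPS and 79700 to 82400 in ES. The neural stem markers summed to 277 to 291 in mNanog iPS, 211 to 220 in hNanog iPS, 217 to 335 in ES and 70200 to 75500 in NS, but one of them, Sox9, was detected on all 3 mNanog iPS arrays and on no hNanog iPS or ES array. Of 6 listed primitive endoderm markers, the 3 tested summed to 2220 to 2650 in mNanog iPS, 2450 to 2780 in hNanog iPS, 2780 to 3310 in ES and 2370 to 2820 in NS. Among them, Dab2 was detected on 2 of 3 mNanog iPS and all hNanog iPS arrays and on no ES array.

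Among the regulators, Atf4 was higher in every pluripotent group than in NS, and no difference among those pluripotent groups passed the threshold. Its brighter probe (ILMN_2642681) read log2 intensities of 11.34, 11.6 and 11.6 on the mNanog iPS arrays, 11.58, 11.75 and 11.6 on the hNanog iPS arrays, 11.61, 11.56 and 11.41 on the ES arrays and 10.8, 10.19 and 10.72 on the NS arrays. The NS arrays lay below all 9 others, whose ranges overlapped. By limma's moderated test, with Benjamini-Hochberg adjustment over all tested probes, the difference from NS was 0.94 (SE 0.15, adjusted p = 8.4e-05) in mNanog iPS, 1.07 (SE 0.15, adjusted p = 2.6e-05) in hNanog iPS and 0.95 (SE 0.15, adjusted p = 7.3e-05) in ES. The second probe (ILMN_1223734) differed from NS by 1.07, 1.59 and 1.21 in the same order, all past the threshold. On that probe the hNanog iPS arrays (7.52, 7.77 and 7.66) lay above those of mNanog iPS (6.9, 6.99 and 7.51) and ES (7.29, 7.24 and 7.28). Those differences, 0.51 and 0.38, did not pass (limma adjusted p = 0.097 and 0.17). In RNA from whole cultures, fewer cells of a type and less RNA per cell cannot be told apart.

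Ddit3 encodes CHOP, a bZIP factor induced downstream of ATF4 that dimerises with C/EBP proteins. On its brighter probe all 4 groups separated, as they also did on the Phgdh probe. Log2 intensities (ILMN_2652909) were 8.41, 8.33 and 8.31 on the mNanog iPS arrays, 7.97, 8.04 and 7.79 on the hNanog iPS arrays, 7.26, 7.15 and 7.23 on the ES arrays and 6.63, 6.67 and 6.75 on the NS arrays. No 2 groups overlapped, and each neighbour in the descending order (mNanog iPS, then hNanog iPS, ES and NS) differed past the threshold (adjusted p = 0.0072, 7.3e-05 and 0.00013 in turn). Ddit3 was 3.16-fold higher than NS in mNanog iPS, 2.37-fold in hNanog iPS and 1.44-fold in ES. The second probe (ILMN_2927373) gave the same order, with the step between the iPS groups not past the threshold (-0.28, adjusted p = 0.25).

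Atf3, a stress-induced repressor of the same bZIP family, stayed near background. Its probe (ILMN_2619408) read 4.85, 5.37 and 5.45 on the mNanog iPS arrays, 4.87, 4.73 and 4.49 on the hNanog iPS arrays, 4.46, 4.47 and 4.47 on the ES arrays and 4.77, 4.96 and 4.7 on the NS arrays. It was detected on 1 mNanog iPS array and no other, so no fold and no test is given.

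**Figure D1:**
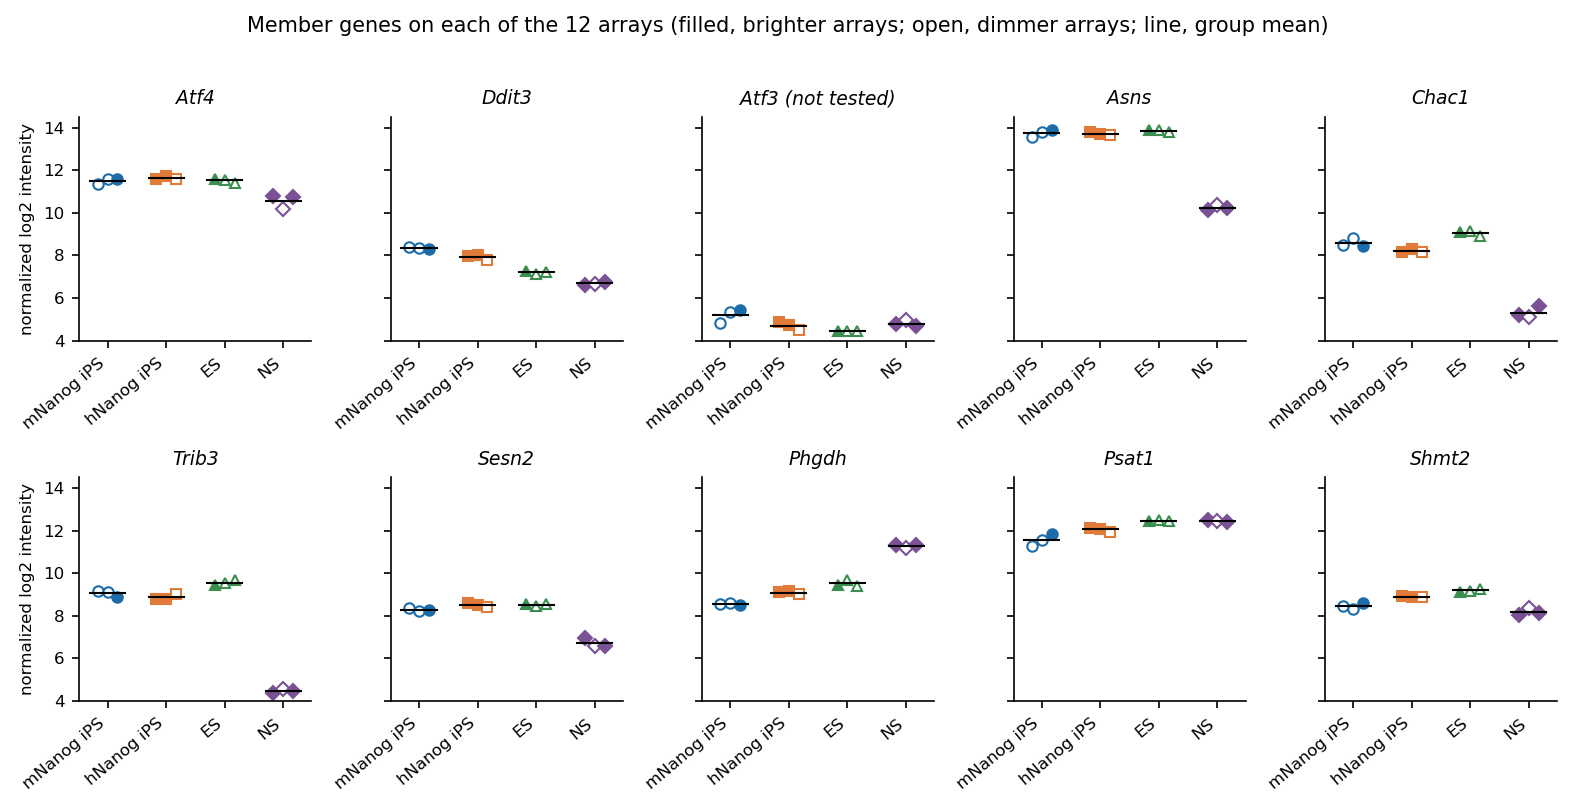
Normalized log2 intensity of each of the 10 members (its brightest probe) on each of the 12 arrays, by group; filled points are the brighter arrays, open points the dimmer ones, and lines the group means. Asns, Chac1 and Trib3 fall by more than 2 log2 units from every pluripotent array to every NS array, whereas Phgdh is highest in NS (11.17 to 11.31).

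Among the targets, Asns, Chac1 and Trib3 differed from NS by more than any regulator did. Asns, the enzyme that makes asparagine from aspartate and glutamine, read 13.57, 13.8 and 13.87 on the mNanog iPS arrays, 13.79, 13.69 and 13.64 on the hNanog iPS arrays, 13.89, 13.89 and 13.79 on the ES arrays and 10.15, 10.35 and 10.23 on the NS arrays (ILMN_2643513). The 9 pluripotent arrays spanned 13.57 to 13.89, more than 3 log2 units above every NS array. Asns was 11.3-fold higher than NS in mNanog iPS (log2 difference 3.5, SE 0.097, adjusted p = 6.5e-12), 11-fold in hNanog iPS and 12.2-fold in ES. The dimmer probe ILMN_3006123 gave larger differences of 4.16, 4.3 and 4.46 in the same order, and ILMN_2636755, detected on 2 of 3 NS arrays, gave 4.18, 4.53 and 4.52.

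Chac1 degrades glutathione and is a known target of ATF4. It read 8.48, 8.83 and 8.43 on the mNanog iPS arrays, 8.16, 8.3 and 8.15 on the hNanog iPS arrays, 9.12, 9.16 and 8.93 on the ES arrays and 5.23, 5.11 and 5.61 on the NS arrays, where 2 of 3 arrays detected it. The 4 groups did not overlap, with ES highest and NS lowest. The differences from NS were 3.26, 2.89 and 3.75 (SE 0.14 each, adjusted p = 4e-10, 1.4e-09 and 1e-10) in mNanog iPS, hNanog iPS and ES.

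Trib3, a pseudokinase that restrains ATF4 in a feedback loop, was not above background on any NS array at any of its 3 probes. Its brightest probe (ILMN_1225528) read 9.16, 9.12 and 8.86 on the mNanog iPS arrays, 8.81, 8.81 and 9.01 on the hNanog iPS arrays, 9.43, 9.52 and 9.67 on the ES arrays and 4.36, 4.58 and 4.46 on the NS arrays. ES again lay above both iPS groups, which overlapped. Set against the lowest signal among detected probes of each NS array, the Trib3 level was at least 19.9-fold higher in ES, at least 14.1-fold higher for mNanog iPS and at least 12.6-fold higher for hNanog iPS (adjusted p = 5.9e-13, 1.6e-12 and 2.3e-12). The dimmer probes gave bounds of 1.69-fold to 3.96-fold.

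Sesn2, a leucine-binding inhibitor of mTORC1 signalling, differed from NS by less. It read 8.36, 8.24 and 8.28 on the mNanog iPS arrays, 8.58, 8.51 and 8.39 on the hNanog iPS arrays, 8.54, 8.48 and 8.55 on the ES arrays and 6.97, 6.6 and 6.57 on the NS arrays (ILMN_2948945). The pluripotent arrays spanned 8.24 to 8.58 and all lay above NS. Sesn2 was 2.99-fold, 3.44-fold and 3.5-fold higher than NS in mNanog iPS, hNanog iPS and ES (adjusted p = 3.4e-08, 1.1e-08 and 9.1e-09).

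The 3 serine and glycine enzymes each stood differently against NS. Phgdh, which catalyses the committed step from glycolysis into serine synthesis, was highest in NS. Log2 intensities were 8.56, 8.61 and 8.5 on the mNanog iPS arrays, 9.1, 9.17 and 9 on the hNanog iPS arrays, 9.45, 9.7 and 9.42 on the ES arrays and 11.31, 11.17 and 11.31 on the NS arrays. No 2 groups overlapped, in the order NS, ES, hNanog iPS, mNanog iPS, and each neighbouring pair differed past the threshold (adjusted p = 4.1e-09, 0.0056 and 0.0028 in turn). Phgdh was 6.52-fold lower than NS in mNanog iPS, 4.51-fold lower in hNanog iPS and 3.35-fold lower in ES.

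Psat1, the aminotransferase of the next step in serine synthesis, read 11.27, 11.56 and 11.83 on the mNanog iPS arrays, 12.11, 12.07 and 11.95 on the hNanog iPS arrays, 12.43, 12.49 and 12.45 on the ES arrays and 12.47, 12.46 and 12.41 on the NS arrays. ES and NS overlapped, and both iPS groups lay below them. ES minus NS was 0.01 (SE 0.12, unadjusted 95% interval -0.25 to 0.27, adjusted p = 0.94). Psat1 was lower than NS by 1.86-fold in mNanog iPS (adjusted p = 2.1e-05) and by 1.32-fold in hNanog iPS (adjusted p = 0.0089).

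Shmt2, which splits serine into glycine and a one-carbon unit in mitochondria, read 8.47, 8.32 and 8.61 on the mNanog iPS arrays, 8.93, 8.86 and 8.86 on the hNanog iPS arrays, 9.12, 9.18 and 9.26 on the ES arrays and 8.02, 8.38 and 8.12 on the NS arrays (ILMN_1224942). ES was highest and hNanog iPS next, while mNanog iPS and NS overlapped. ES exceeded NS by 1.01 (SE 0.11, adjusted p = 2.1e-06) and hNanog iPS by 0.71 (SE 0.11, adjusted p = 5.5e-05). The excess of mNanog iPS was 0.3 (SE 0.11, adjusted p = 0.024). That small excess turned to -0.22 (adjusted p = 0.6) when arrays were scaled to a common median instead of quantile normalized, or 0.1 above the median shift of all tested probes, -0.32. It also lost its call without mNanog iPS replicate 1 or 3 (adjusted p = 0.051 and 0.097), without NS replicate 1 or 3 (0.1 and 0.071), with cyclic loess (0.11, adjusted p = 0.38) and in a fit of the 2 groups alone (adjusted p = 0.068). The second Shmt2 probe (ILMN_2702703) gave 0.49 for the same comparison (SE 0.13, adjusted p = 0.0033).

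Counted over the 9 tested members, each read from its brightest probe, 7 were higher and 2 lower in mNanog iPS than in NS, where 39.3% of all 10043 genes were higher and 38.3% lower. In hNanog iPS the counts were again 7 higher and 2 lower (40.7% and 37.3% of all genes). In ES they were 7 higher and 1 lower, Psat1 being the exception (40.7% and 36.9%). Most genes differed between NS and the pluripotent groups (74.8%, 75.3% and 75.2% of probes for mNanog iPS, hNanog iPS and ES), so a call alone does not set a member apart. Trib3, detected on no NS array, passed the detection filter through the pluripotent groups alone, and its call is no added support. The median member differed from NS by 1.58 in mNanog iPS, 1.25 in hNanog iPS and 1.01 in ES, against 0.05, 0.08 and 0.08 over all genes.

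The brighter and the dimmer arrays, 6 each, were also fitted separately. Among the brighter ones mNanog iPS and ES have 1 array each, and among the dimmer ones hNanog iPS and NS have 1 each; the spread then comes wholly from the groups that have 2 arrays, and single arrays are taken to share it. Within the brighter arrays, every member call against NS was also made, with differences of 3.68, 3.54 and 3.7 for Asns and -2.81, -2.18 and -1.87 for Phgdh in mNanog iPS, hNanog iPS and ES. Within the dimmer arrays, each group was set against a single NS array (1 against 1 for hNanog iPS): Asns differed by 3.33, 3.29 and 3.49 and Phgdh by -2.58, -2.17 and -1.61. The calls lost there were Shmt2 in mNanog iPS (0.02, adjusted p = 0.9) and Psat1 in hNanog iPS (-0.51, adjusted p = 0.069). Under median scaling, calls against NS were also lost for Atf4 in mNanog iPS and ES (0.59 and 0.68, adjusted p = 0.2 and 0.14), Ddit3 in ES (0.02, adjusted p = 0.97), Shmt2 in hNanog iPS and ES (0.49 and 0.57, adjusted p = 0.22 and 0.15) and Psat1 in hNanog iPS (-0.39, adjusted p = 0.37). That scaling shifted the median of all tested probes by -0.32 to 0.25 over the 6 comparisons. Relative to the shift, Ddit3 in ES stood at 0.25 above NS and Atf4 at 0.91.

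The size of the differences of the less bright members moved with the processing. On the authors' processed values, taken as log2, Chac1 differed from NS by 1.53 in mNanog iPS, 1.26 in hNanog iPS and 1.91 in ES, and Trib3 by 2.12, 1.98 and 2.53. Those values gave 0.94, 0.66 and 0.24 for Ddit3 and 0.89, 1.03 and 1.05 for Sesn2, all still called, and 3.49, 3.45 and 3.6 for Asns. Without background correction Chac1 differed by 2.16, 1.84 and 2.59. Against ES, the same processed values put Ddit3 at 0.7 in mNanog iPS and 0.41 in hNanog iPS. The mean over all tested probes of a gene gave Trib3 2.74, 2.69 and 3.27.

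**Figure D2:**
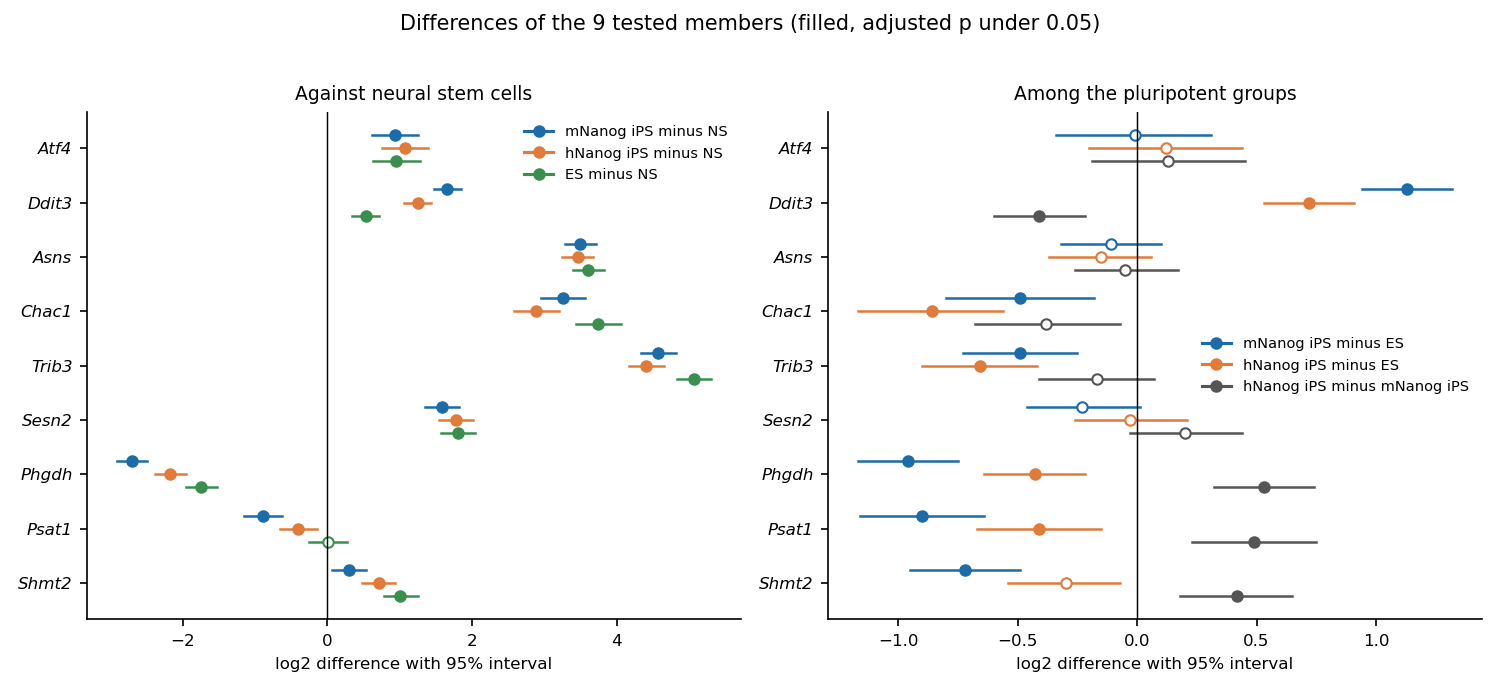
Log2 difference of the 9 tested members, with unadjusted 95% intervals, for each pluripotent group minus NS and for the comparisons among the pluripotent groups; filled points have a limma adjusted p under 0.05. Asns and Chac1 lie 2.89 to 3.75 above NS and Phgdh furthest below (-2.7 to -1.74), while Trib3, drawn at its NS signal, was not above background there, so its points against NS show no exact size; among pluripotent groups, Ddit3 alone lies above ES in both iPS groups with a call.

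The question put to mNanog iPS and ES cells, grown in the same stated medium, was how far iPS cells match ES cells. Of the 9 tested members, Ddit3 was higher in mNanog iPS and 5 were lower (Phgdh, Psat1, Shmt2, Chac1 and Trib3), where 17.7% of all genes were higher and 18.4% lower and 32.8% of probes differed. Ddit3 was 2.2-fold higher (log2 difference 1.13, SE 0.087, adjusted p = 1e-06). The serine enzymes were lower by 1.95-fold for Phgdh (adjusted p = 9.7e-06), 1.87-fold for Psat1 (0.00011) and 1.65-fold for Shmt2 (0.00025). Chac1 was 1.4-fold lower (adjusted p = 0.019) and Trib3 1.41-fold lower (adjusted p = 0.0044), and the arrays of both groups did not overlap for any of these 6 members. Atf4 differed by -0.01 (unadjusted 95% interval -0.34 to 0.31), Asns by -0.11 (-0.32 to 0.1) and Sesn2 by -0.23 (-0.46 to 0.01), none past the threshold. On a dimmer Asns probe (ILMN_3006123) mNanog iPS was lower by 1.23-fold (adjusted p = 0.016).

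With array brightness as a block, the same 6 members passed, at 1.13 for Ddit3, -0.96 for Phgdh, -0.9 for Psat1, -0.72 for Shmt2 and -0.49 for Chac1 and Trib3. Within the brighter arrays, 1 against 1 with the spread taken from hNanog iPS and NS, the differences were 1.04 for Ddit3, -0.95 for Phgdh, -0.6 for Psat1, -0.51 for Shmt2, -0.69 for Chac1 and -0.57 for Trib3, all with an adjusted p under 0.05. Within the dimmer arrays, 2 against 2, they were 1.18, -0.97, -1.06, -0.82, -0.39 and -0.45 in the same order, and Chac1 was not past the threshold (adjusted p = 0.16). The Chac1 call was also lost without mNanog iPS replicate 1 or 3 or ES replicate 1 or 2 (adjusted p = 0.064, 0.071, 0.054 and 0.067) and with array weights (0.054). The Trib3 call was lost with cyclic loess (adjusted p = 0.12). Under median scaling only Ddit3 passed (1.1, with an adjusted p that rounds to 0.05); Phgdh stood at -1.03 with an adjusted p of 0.076. Fibroblast markers moved with this comparison: the summed intensity of the 3 tested of 6 listed (Col1a1, Thy1 and Acta2) was 484 to 571 in mNanog iPS, 72.8 to 86.9 in hNanog iPS, 83.2 to 90.4 in ES and 303 to 382 in NS. All 3 were detected on every mNanog iPS array and on no ES array. Sox9 (at least 2.2-fold, limma adjusted p = 2.8e-07) and Dab2 (at least 1.34-fold, adjusted p = 1.2e-05) were also higher in mNanog iPS than in ES. The part of these markers in the result was not tested.

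hNanog iPS cells differed from ES cells at 5 members: Ddit3 was higher, and Phgdh, Psat1, Chac1 and Trib3 were lower, where 15.1% of all genes were higher and 13.9% lower and 26.1% of probes differed. Ddit3 was 1.65-fold higher (log2 difference 0.72, SE 0.087, adjusted p = 7.3e-05). Chac1 was 1.82-fold lower (adjusted p = 0.00073), Trib3 1.58-fold (0.00078), Phgdh 1.35-fold (0.0056) and Psat1 1.33-fold (0.024). Shmt2 just missed the threshold (-0.3, unadjusted 95% interval -0.54 to -0.07, adjusted p = 0.055) although its groups did not overlap. On its second probe (ILMN_2702703) they did, with a difference of -0.1 (limma adjusted p = 0.61). Of the dimmer Trib3 probes, ILMN_1252762 was also lower (-0.71, adjusted p = 0.0026), while ILMN_1244279 did not pass (-0.38, adjusted p = 0.091). Atf4 differed by 0.12 (unadjusted 95% interval -0.2 to 0.44), Asns by -0.15 (-0.37 to 0.06) and Sesn2 by -0.03 (-0.26 to 0.21), none past the threshold. Dab2 was higher in hNanog iPS than in ES as well (at least 2.14-fold, limma adjusted p = 7e-07), and its part was not tested. Both iPS groups were compared with the same 3 ES arrays, so their shared directions are not independent of each other.

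With brightness as a block the same 5 members passed, at 0.7 for Ddit3, -0.88 for Chac1, -0.59 for Trib3, -0.44 for Phgdh and -0.45 for Psat1. Within the brighter arrays, where ES has 1 array, Ddit3 (0.74), Chac1 (-0.89) and Trib3 (-0.62) passed, while Phgdh (-0.31, adjusted p = 0.12) and Psat1 (-0.34, adjusted p = 0.099) did not. Within the dimmer arrays, where hNanog iPS has 1 array, 0 members passed limma's adjusted threshold and 6 of 9 had an unadjusted p under 0.05, at 0.6, -0.89, -0.59, -0.56 and -0.52 for Ddit3, Chac1, Trib3, Phgdh and Psat1. The Psat1 call was lost without hNanog iPS replicate 2 or 3 or ES replicate 2 or 3 (adjusted p = 0.058, 0.078, 0.073 and 0.061). Under median scaling 0 members passed limma's adjusted threshold, and 1 had an unadjusted p under 0.05. Phgdh and Psat1 then stood at -0.22 and -0.21, or -0.38 and -0.37 relative to the shift of all probes, 0.17.

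Between the iPS groups, which ask whether the form of Nanog used leaves a difference, the serine enzymes separated: Phgdh, Psat1 and Shmt2 were higher in hNanog iPS and Ddit3 was lower. All genes gave 7.17% higher and 8.72% lower, with 13.7% of probes past the threshold. Phgdh was 1.44-fold higher (log2 difference 0.53, SE 0.096, adjusted p = 0.0028), Psat1 1.41-fold (0.49, SE 0.12, adjusted p = 0.017) and Shmt2 1.33-fold (0.42, SE 0.11, adjusted p = 0.022). Ddit3 was 1.33-fold lower (adjusted p = 0.0072). On these probes, the brightest of each gene, the arrays of the groups did not overlap for these 4 members. The second probes of Shmt2 (ILMN_2702703, 0.31, limma adjusted p = 0.13) and Ddit3 (ILMN_2927373, -0.28, adjusted p = 0.25) did not pass, and the groups overlapped on that Ddit3 probe. The other 5 tested members did not pass, with Chac1 nearest (-0.38, adjusted p = 0.11); Sesn2 passed only on its dimmer probe (ILMN_1219984, 0.44, adjusted p = 0.049). For Phgdh, Psat1 and Shmt2, hNanog iPS thus lay between mNanog iPS and ES, and the same held in mirror image for Ddit3.

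With brightness as a block, the same 4 members passed, at 0.52, 0.45, 0.43 and -0.44 for Phgdh, Psat1, Shmt2 and Ddit3. Within the brighter arrays, where mNanog iPS has 1 array, the differences were 0.64, 0.26, 0.29 and -0.3 in that order, and only Phgdh passed (adjusted p = 0.015). Within the dimmer arrays, where hNanog iPS has 1 array, they were 0.41, 0.54, 0.46 and -0.58; 0 members passed limma's adjusted threshold and 3 had an unadjusted p under 0.05. The Shmt2 call was lost when mNanog iPS replicate 1 or 2 or any hNanog iPS array was left out (adjusted p = 0.05 to 0.094), and the Psat1 call without mNanog iPS replicate 1 or hNanog iPS replicate 1 or 2 (0.05 to 0.067). Without mNanog iPS replicate 1, hNanog iPS replicate 1 or hNanog iPS replicate 2, the members past the threshold fell from 4 to 2, Phgdh and Ddit3. Cyclic loess ended the Shmt2 call (0.36, adjusted p = 0.052), the fit of the 2 groups alone ended that of Psat1 (adjusted p = 0.075), and under median scaling 0 members passed limma's adjusted threshold and 3 had an unadjusted p under 0.05. Phgdh, Psat1 and Shmt2 then stood at 0.82, 0.8 and 0.71 and Ddit3 at -0.12, or 0.56, 0.55, 0.45 and -0.38 relative to the shift of all probes, 0.25. Col1a1, Thy1 and Acta2 were lower in hNanog iPS, but Col1a1 and Acta2 were detected on no array there, so no exact size is given. Col1a1 was detected in mNanog iPS alone and passed the detection filter through it. Sox9 was at least 2.32-fold lower in hNanog iPS and Dab2 was 1.6-fold higher. The part of these markers in the differences was not tested.

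The other serine, glycine and folate enzymes on the array extended the comparison with ES. Of 7 tested among 11 listed, 1 was higher and 3 lower in mNanog iPS than in ES (median -0.31), and 0 were higher and 3 lower in hNanog iPS (median -0.34). Over all genes 17.7% were higher and 18.4% lower in mNanog iPS, and 15.1% and 13.9% in hNanog iPS. Gldc, the decarboxylase of the glycine cleavage system, read 10.39, 10.39 and 10.11 on the mNanog iPS arrays, 10.36, 10.25 and 10.19 on the hNanog iPS arrays, 12.12, 12.24 and 12.24 on the ES arrays and 11.55, 11.7 and 11.56 on the NS arrays. Both iPS groups lay below ES and NS, by 1.9 and 1.93 log2 units from ES (adjusted p = 3.2e-08 and 6e-08). Shmt1, the cytosolic counterpart of Shmt2, was lower than ES by 0.69 in mNanog iPS and 0.44 in hNanog iPS on the log2 scale (limma adjusted p = 8.4e-05 and 0.0031), and Mthfd2, a mitochondrial folate enzyme, by 0.55 and 0.36 (adjusted p = 9e-04 and 0.016). Aldh1l2, a mitochondrial formyltetrahydrofolate dehydrogenase, was the exception: it was detected on all mNanog iPS and NS arrays but on 1 array each of hNanog iPS and ES, and differed by 2.09 between mNanog iPS and ES. Against NS, 5 of the 7 were higher and 1 lower in mNanog iPS, 5 higher and 2 lower in hNanog iPS, and 6 higher and 1 lower in ES. Over all genes 39.3%, 40.7% and 40.7% were higher and 38.3%, 37.3% and 36.9% lower. Shmt1 (0.87, 1.12 and 1.56) and Mthfd1 (1.35, 1.19 and 1.15) were higher, in contrast to Phgdh.

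**Figure D3:**
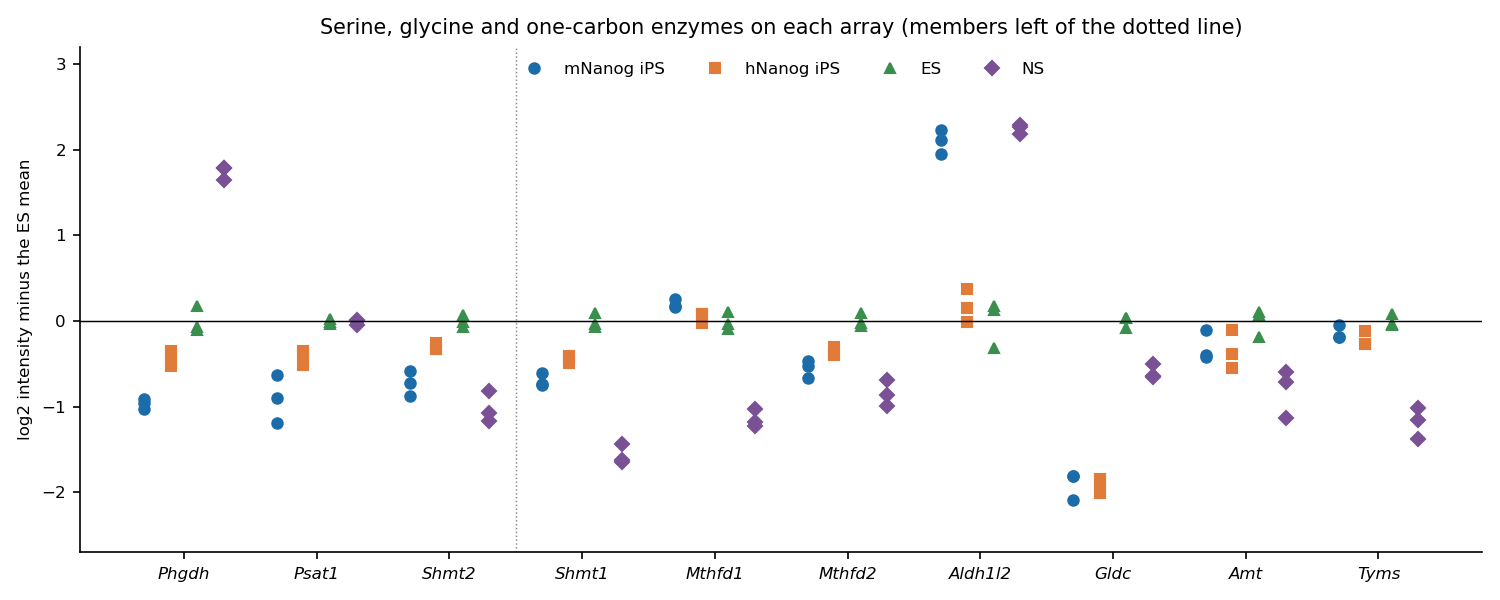
Log2 intensity of Phgdh, Psat1 and Shmt2 and of the 7 other tested serine, glycine and one-carbon enzymes on each array, relative to the ES mean of the same probe, with 1 symbol per group. For Phgdh, Psat1, Shmt2, Shmt1 and Mthfd2 both iPS groups lie below 0; Gldc is lower by 1.9 and 1.93 in the iPS groups, and Aldh1l2 stands out in mNanog iPS and NS.

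Upstream of ATF4, 5 of 9 listed eIF2alpha kinases and regulators were tested; Eif2ak3 (PERK) and Eif2ak4 (GCN2) were not analysed here. All 5 were higher than NS in mNanog iPS and hNanog iPS, and 4 in ES, with medians of 0.75, 1.05 and 0.8. Over all genes 39.3%, 40.7% and 40.7% were higher in the same order. Ppp1r15a (GADD34), the ATF4-induced phosphatase subunit that reverses eIF2alpha phosphorylation, was higher by 1.34, 1.08 and 1.41 (limma adjusted p = 5.1e-07, 4.2e-06 and 3.3e-07). Impact, an inhibitor of GCN2 activation, read 12.98 to 13.12 in mNanog iPS, 12.44 to 12.56 in hNanog iPS, 11.89 to 11.95 in ES and 10.65 to 10.77 in NS. The 4 groups did not overlap and stood in the same order as for Ddit3.

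Most listed tRNA synthetases were higher in the pluripotent groups. Of 13 genes commonly listed as ATF4 targets (12 synthetases and the tRNA exporter Xpot), 11, 10 and 11 were higher in mNanog iPS, hNanog iPS and ES than in NS and 0 lower, with medians of 0.86, 0.93 and 1.1. Over all genes 39.3%, 40.7% and 40.7% were higher and 38.3%, 37.3% and 36.9% lower. Iars, which charges isoleucine tRNA, was higher by 1.78, 1.78 and 2.02 (limma adjusted p = 3.5e-09, 3.4e-09 and 9.6e-10), and Aars, for alanine, by 0.86, 0.91 and 1.19. The 8 tested synthetases outside that list, among them the mitochondrial Fars2, gave 6, 6 and 7 higher and 1, 0 and 0 lower, with medians of 0.46, 0.7 and 0.8; whether the lists differ was not tested. Against ES, 3 of the 13 were lower in mNanog iPS and 2 in hNanog iPS, with 0 higher, and of the other 8 synthetases 4 and 1 were lower. Over all genes 17.7% and 15.1% were higher and 18.4% and 13.9% lower than ES. In hNanog iPS against mNanog iPS, 1 of the 13 was higher (Yars, which was not above background in mNanog iPS) and 1 lower (Xpot). Of the other 8 synthetases, 1 was higher (Vars, 0.34, limma adjusted p = 0.045). All genes gave 7.17% higher and 8.72% lower in that comparison.

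Of 8 tested among 11 listed amino acid transporters, 3, 4 and 4 were higher and 4, 4 and 4 lower in mNanog iPS, hNanog iPS and ES than in NS, with medians of -0.46, -0.4 and -0.38. Over all genes 39.3%, 40.7% and 40.7% were higher and 38.3%, 37.3% and 36.9% lower, so the counts lie near the background. Slc7a3, a cationic amino acid transporter, was higher by 6.08, 6.78 and 6.9 and was detected on 1 of 3 NS arrays. Slc6a9, a glycine transporter, was lower by 4.14, 4.69 and 4.07 on the log2 scale. Slc7a11, the cystine transporter and a standard ATF4 target, was detected on no pluripotent array and on all 3 NS arrays, at least 1.26-fold, 1.35-fold and 1.28-fold lower (adjusted p = 3.8e-05, 4.6e-06 and 2.7e-06). It passed the detection filter through NS alone. Against ES, 0 and 1 were higher and 2 and 2 lower in mNanog iPS and hNanog iPS. All genes gave 17.7% and 15.1% higher and 18.4% and 13.9% lower there. Between the iPS groups 2 were higher and 2 lower in hNanog iPS, where 7.17% of all genes were higher and 8.72% lower.

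Chaperones of the endoplasmic reticulum, listed with other ATF6 or XBP1 targets, did not follow Asns as a list. The transporter list did not either, with medians of -0.46, -0.4 and -0.38 against NS. What regulates either list here was not tested. The chaperone counts were as follows. Of 11 tested among 14 listed, 2 were higher in each pluripotent group than in NS and 5, 5 and 6 were lower, with medians of -0.22, -0.2 and -0.25. Over all genes 39.3%, 40.7% and 40.7% were higher and 38.3%, 37.3% and 36.9% lower, so the counts of lower genes alone do not set this list apart. Dnajc3, a co-chaperone, was lower by 1.29, 1.74 and 1.72 on the log2 scale, and Pdia6, a disulfide isomerase, by 1.59, 1.62 and 0.96. Xbp1 was higher than ES in mNanog iPS (0.65, adjusted p = 7.4e-05) and hNanog iPS (0.32, adjusted p = 0.012), within a list of 2 higher and 3 lower, and 2 higher and 2 lower. Hspa5, the standard marker of this response, has 1 annotated probe, which was not among the tested probes. Between the iPS groups, 0 of the 11 were higher and 2 lower in hNanog iPS (Dnajc3 and Xbp1), where 7.17% of all genes were higher and 8.72% lower. Against ES, all genes gave 17.7% higher and 18.4% lower in mNanog iPS, and 15.1% and 13.9% in hNanog iPS.

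**Figure D4:**
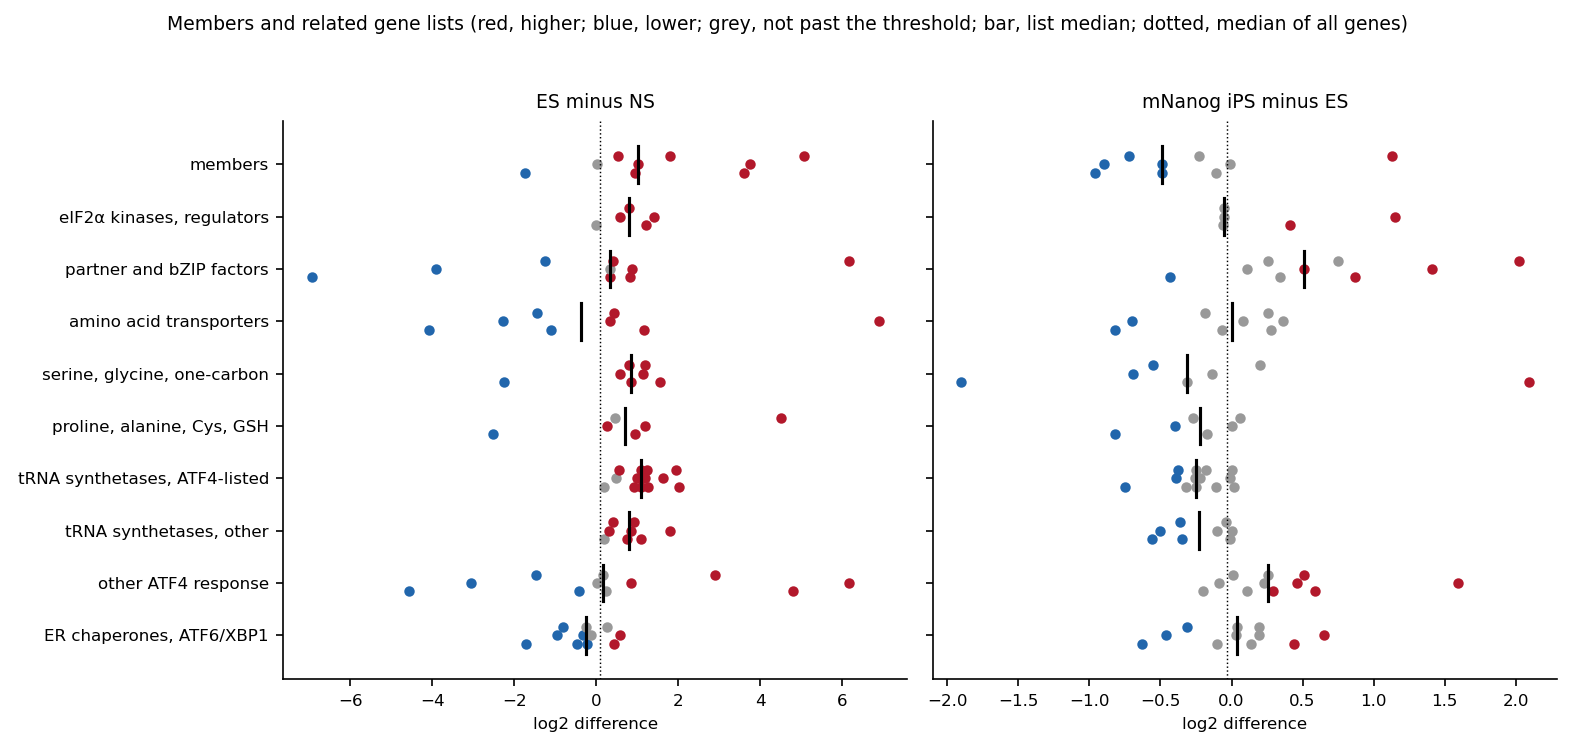
Log2 differences of the 9 tested members and of 9 related gene lists in ES minus NS and in mNanog iPS minus ES, with 1 point per gene (red, higher; blue, lower; grey, not past the threshold), a bar at each list's median and a dotted line at the median of all genes. In ES minus NS the medians of the members (1.01) and of the listed tRNA synthetases (1.1) lie above that of all genes (0.08), and that of the chaperones (-0.25) below it; in mNanog iPS minus ES the members' median is -0.49.

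The genes whose pattern was most like that of Asns over the 12 arrays, by the root mean square difference after each probe was centred on its own mean, were Slc12a7 (0.132 log2 units), Nfatc2ip (0.142), Prkcd (0.144), A4galt (0.155) and Slc35f2 (0.158). In NS, Slc12a7, Prkcd, A4galt and Slc35f2 averaged 4.62, 4.59, 4.46 and 4.7, below the lowest detected signal there (5.15 to 5.36), so their likeness to Asns rests in part on values not above background. Nfatc2ip, at 6.42, lay above it. Among members, Chac1 was nearest to Asns (0.318, rank 145 of 15676 probes) and Trib3, not above background in NS, next (0.56, rank 467), while Atf4 ranked 2621. Those most like Phgdh were Rnd2 (0.133), Bcl7c (0.157), Ece1 (0.162), Hspb6 (0.166) and Zfp637 (0.179). Its nearest member was Psat1, at rank 3618. Phgdh and Asns were thus each closer to many genes outside the pathway than to each other.

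The promoter core shown above was also counted by gene list. It stood in 5 of the 9 ATF4-listed tRNA synthetases with a RefSeq window (Aars, Gars, Iars, Tars and Yars, named for the match) and in 0 of 6 other synthetases, 0 of 9 serine, glycine and folate enzymes, 0 of 7 eIF2alpha genes and 0 of 12 chaperone genes. It also stood in 2 of 7 transporters (Slc7a11 and Slc1a4), 2 of 6 proline and related genes (Pycr1 and Got1), 2 of 10 partner and bZIP factors (Nupr1 and Jdp2) and 4 of 12 other response genes (Vldlr, Fgf21, Nupr1 and Herpud1). Of genes with a window, 2.83% of those higher than NS in all 3 comparisons held it in any of their windows (77 of 2717). The shares were 2.38% of those lower in all 3 (61 of 2565) and 2.63% of the remainder (75 of 2855). These shares count genes, unlike the share of all windows given above. Among the members, Asns, Chac1 and Trib3 hold it, as does Atf3, which stayed near background in all groups, while Atf4, Ddit3, Sesn2, Psat1, Phgdh and Shmt2 hold none in this window.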

How the data were processed

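Bead signals of each probe were deposited by the authors as linear intensity, with no normalization between arrays visible in the values, and a detection p-value beside it, per the file headers. They also deposited a processed table of 20513 probes, taken here as log2 values from their range; its columns share 1 median, 7.74, and each ranked closest to the signal of its own array. No source used here names the scanner software or the background step behind that table.

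The re-analysis used limma 3.58.1 (R 4.3.3): neqc (background from the detection p-values, offset 16, quantile normalization), a filter on detection p under 0.01 on at least 3 arrays, 4 group means fitted to all 12 arrays, eBayes, and Benjamini-Hochberg adjustment over all 18185 tested probes with a threshold of 0.05. Differences are the group named first minus the second. A gene was read from its tested probe with the highest mean, named through the platform annotation (17484 probes with 1 gene, 8 with several). A probe detected on no array of a group has a bound there, set at the higher of its own signal and the lowest signal of a detected probe ("at least N-fold"). Of each list, at most 4 genes per comparison were named, those with the largest differences past the threshold, plus Slc7a11, Mthfd2, Aars, Ppp1r15a and Nupr1. Levels of Eif4ebp1 and Vegfa were also given for the pluripotent group in which they fell outside that limit. List counts are to be read beside the share of all genes called in the same comparison, given with the member counts. Members, lists, tests and alternatives were chosen with earlier results of these data known. The test was checked on simulated data with independent noise, which lacks the correlation seen between arrays of like brightness. Array number limits the precision. Slide and scan were not analysed here.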

Additional observations from a re-analysis of the deposited data

How the results depend on the processing

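Each comparison was recomputed under 27 to 28 other settings, giving 1500 member results. Of these, 1420 kept their side of the threshold, and 63 lost and 16 gained a call. In 1 result a called difference changed sign (Shmt2 in mNanog iPS minus NS, -0.22 under median scaling). Small differences that changed sign without a call in either fit are among the 1420, such as Sesn2 in hNanog iPS minus ES (main value -0.03, range -0.12 to 0.21). Asns, Chac1, Trib3, Sesn2 and Phgdh against NS kept their calls under every setting in which they were tested, although Chac1 and Trib3 fell to as little as 1.26 and 1.98 on the authors' processed values. Median scaling in place of quantile normalization changed most: probes past the threshold fell to 927 (mNanog iPS minus ES), 730 (hNanog iPS minus ES), 311 (hNanog iPS minus mNanog iPS), 8870 (hNanog iPS minus NS) and 8788 (ES minus NS), and members to 1, 0, 0 and 5 in mNanog iPS minus ES, hNanog iPS minus ES, hNanog iPS minus mNanog iPS and ES minus NS; the cause was not tested. The share of calls that were higher moved from 48.6%, 52.6%, 46.8%, 52%, 53.9% and 54% to 65.3%, 76%, 40.2%, 30.3%, 42.7% and 32.5% in the order mNanog iPS minus ES, hNanog iPS minus ES, hNanog iPS minus mNanog iPS, mNanog iPS minus NS, hNanog iPS minus NS and ES minus NS, and to 35.8% for hNanog iPS minus mNanog iPS with cyclic loess. Testing only the 11176 probes detected on all arrays left 1602, 8652, 8784 and 8748 in the last 4 of these, and array weights gave 4246 for hNanog iPS minus mNanog iPS. With fewer samples, the brighter arrays alone gave 3849 probes in mNanog iPS minus ES and 3 and 1 members in hNanog iPS minus ES and hNanog iPS minus mNanog iPS. The dimmer arrays alone gave 3800, 1402 and 533 probes in the 3 comparisons without NS, and 0 and 0 members in the 2 with hNanog iPS. Leaving out 1 array at a time gave, in the same order, 4949 to 6333, 3587 to 5014, 1737 to 2732, 12947 to 13651, 13086 to 13759 and 12970 to 13712 probes and 5 to 6, 4 to 6, 2 to 4, 8 to 9, 9 to 9 and 8 to 8 members. Replicate numbers do not pair the samples: after group means were removed, same-numbered arrays correlated at -0.51 to 0.37 (median -0.17, 18 pairs). With replicate number as a block, 5516, 4251, 2095, 13414, 13506 and 13451 probes and 6, 5, 4, 9, 9 and 8 members passed. Arrays of like brightness correlated at a median of 0.3 and unlike ones at -0.25; with brightness as a block 7179, 5397, 3055, 14176, 14348 and 14226 probes passed. Signals near background, as for Atf3 and for Trib3 and Slc7a11 where not detected, give only bounds.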

Other observations

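Factors that pair with ATF4 or share its family differed from NS in both directions: of 9 tested among 13, 5, 5 and 5 were higher and 2, 3 and 3 lower in mNanog iPS, hNanog iPS and ES than in NS (medians 0.52, 0.5 and 0.34). Over all genes 39.3%, 40.7% and 40.7% were higher and 38.3%, 37.3% and 36.9% lower, so these counts alone do not set the list apart. Nupr1, a stress-induced chromatin protein that acts with ATF4, read 11.42 to 11.45 in mNanog iPS, 11.73 to 11.9 in hNanog iPS and 10.76 to 11.04 in ES, and was not detected on any NS array. It was at least 74.2-fold, 95.1-fold and 52-fold higher than NS (limma adjusted p = 2.6e-13, 1.7e-13 and 5e-13). Since Nupr1 passed the detection filter through the pluripotent groups alone, its call against NS is no added support. Nupr1 was also higher than ES in mNanog iPS (0.51, adjusted p = 0.0097) and hNanog iPS (0.87, adjusted p = 0.00038). Fos and Jun, the AP-1 factors induced by ERK signalling, were lower than NS: Fos by 4.92 and 5.81 on the log2 scale in mNanog iPS and hNanog iPS and at least 82.3-fold in ES, where it was not detected. Cebpb, an ATF4 partner, read 8.57 to 8.71 in mNanog iPS, 7.87 to 8.02 in hNanog iPS, 7.07 to 7.42 in ES and 8.35 to 8.58 in NS, so the pluripotent groups stood in the order seen for Ddit3. It exceeded ES by 1.41 in mNanog iPS (adjusted p = 7.8e-07) and 0.74 in hNanog iPS (adjusted p = 0.00027). Against ES the list gave 4 and 3 higher and 1 and 1 lower, where 17.7% and 15.1% of all genes were higher and 18.4% and 13.9% lower. Between the iPS groups 0 were higher and 3 lower in hNanog iPS (Fos, Cebpb and Atf5), where 7.17% of all genes were higher and 8.72% lower.

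Other response genes were mixed against NS, with 7, 7 and 4 of 11 higher and 4, 4 and 4 lower (medians 0.42, 0.29 and 0.16). Over all genes 39.3%, 40.7% and 40.7% were higher and 38.3%, 37.3% and 36.9% lower. Bcat1, which starts branched-chain amino acid breakdown, was higher by 5.1, 4.8 and 4.81. Eif4ebp1, a translation repressor, was higher by 3.01 and 2.85 in mNanog iPS and hNanog iPS. Its ES arrays (12.74, 12.57 and 12.66) also lay above its NS arrays (9.7, 9.69 and 9.89). Vegfa went the other way, with log2 differences from NS of -3.05 in mNanog iPS and -3.06 in ES. Its mean in hNanog iPS (8.58) was also below that in NS (11.08). Vldlr, a lipoprotein receptor induced by ATF4, was lower than NS in every pluripotent group. The difference was 4.38 and 4.57 on the log2 scale in hNanog iPS and ES. It was smaller in mNanog iPS, where Vldlr was higher than in ES (1.59, limma adjusted p = 2.6e-05). Against ES, 5 and 3 of the 11 were higher and 0 and 0 lower in mNanog iPS and hNanog iPS, while 5 and 4 of the 9 members were lower. Over all genes 17.7% and 15.1% were higher and 18.4% and 13.9% lower. Between the iPS groups 0 of the 11 were higher and 1 lower in hNanog iPS, where 7.17% of all genes were higher and 8.72% lower. Of 6 tested proline, alanine, transsulfuration and glutathione genes, 3, 4 and 4 were higher and 2, 1 and 1 lower than NS in mNanog iPS, hNanog iPS and ES. Cth, which makes cysteine from cystathionine, was not detected on any NS array and was at least 17.6-fold, 22.1-fold and 16.9-fold higher. Like Nupr1, it passed the detection filter through the pluripotent groups alone. Aldh18a1, an enzyme of proline synthesis, was lower than ES by 0.82 in mNanog iPS and 0.43 in hNanog iPS on the log2 scale (adjusted p = 0.00014 and 0.014). The list gave 0 and 0 higher and 2 and 1 lower against ES, and 2 higher and 0 lower in hNanog iPS against mNanog iPS.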
